A study of Mus musculus with 2 samples.

Results

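The interferon response genes are the genes that cells switch on after interferon, the signal protein of antiviral defence, has bound its receptor. A list of 40 of them was matched by symbol to the gene tables of the study, and each of the 40 matched exactly once among 55536 genes. Total RNA had been sequenced from the adrenal gland of female 5xFAD/CAST mice aged 8 to 10 months, with 2 libraries in 1 group. 5xFAD is a transgenic model of Alzheimer's disease in which mutant human amyloid precursor protein and presenilin are expressed from the neuronal Thy1 promoter, and CAST is a wild-derived inbred strain. The labels do not say whether each animal carried the transgenes, and no second group was analysed here. Their replicate numbers name the libraries mouse 2 and mouse 1 below, but both carry the same donor identifier, so that they came from separate animals rests on those numbers alone. What follows describes the level of each gene in the gland, the difference between mouse 2 and mouse 1, the transcripts behind the levels and the sequence before the genes. Each mean is given with the SD of the 2 mice (n = 2). A p-value here compares 1 library with another, and what separates them may be technical.

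Type I interferons signal through the receptor Ifnar1 and Ifnar2, whose Janus kinases phosphorylate Stat2 among other proteins. Stat2 and Irf9 belong to a complex that binds the interferon-stimulated response element (ISRE) of target promoters, while interferon gamma acts mainly through the gamma-activated site (GAS). The products of the target genes degrade viral RNA, block its translation, trap virus at membranes, attack the vacuoles of intracellular parasites, or raise and restrain the response itself. Many are also transcribed at a low level without infection.

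Depth was 32192201 expected counts over genes in mouse 2 and 36558609 in mouse 1. Levels are given as TPM, a share of all transcripts that corrects for transcript length. Nuclear protein-coding genes took 32.3% of the TPM in mouse 2 and 29.5% in mouse 1, so a TPM here is smaller than it would be in a library of messenger RNA alone. The labelled tissue was checked on defining markers. All 10 listed markers of the steroid-producing cortex reached 10 TPM in both mice, and all 8 listed markers of the chromaffin cells of the medulla reached 1 TPM. The 2 libraries were not copies of each other, since 3771 of 17666 genes tested (21.3%) differed beyond counting noise.

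The promoters of these genes were searched for the sequences that the activated factors read. A match is one of letters alone, and binding of a factor was not measured. RefSeq promoter windows (GRCm38.p6), from 250 bases before a RefSeq start to 50 bases after it, were at hand for 29 of the 40 genes. These genes had 33 windows in all, since Irf1, Irf9, Gbp3 and Ifit2 each had more than 1. A RefSeq start can lie inside the gene as annotated here. The window of Ifitm1 ran from 140967826 to 140968125, while the annotated gene starts at 140967221, so that start was not searched. The genes without a window were Oas2, Mx1, Mx2, Ifi27, Dhx58, Usp18, Iigp1, Rtp4, Parp9, Parp14 and Zbp1. The ISRE was searched on both strands as GAAANNGAAA, which reads TTTCNNTTTC on the other strand. It was found in 19 of the 29 genes (65.5%), against 1079 of all 27025 genes with a window (3.99%). The match stood before the start in 15 genes, and only after it in Ifitm3, Ddx58, Eif2ak2 and Ifih1. In 9 of the 29 genes (31.0%) the window held 2 or more matches, against 72 of all genes (0.266%). The genes were listed as interferon-stimulated, and such elements are known in many of them, so these shares describe the list and are not independent evidence about it.

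The following stretches of 80 bases are those of the 3 most abundant genes with a match before the start, then of a pair of GTPase genes, then of textbook targets at low level in this gland. Each is written 5′ to 3′ in the direction of transcription, and capitals mark the ISRE.
Ifitm2, chr7:140955963-140956042, minus strand: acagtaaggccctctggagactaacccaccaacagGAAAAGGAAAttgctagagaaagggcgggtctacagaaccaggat
Bst2, chr8:71537555-71537634, minus strand: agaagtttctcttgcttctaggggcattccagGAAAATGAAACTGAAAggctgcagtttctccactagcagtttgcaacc
Stat2, chr10:128270248-128270327, plus strand: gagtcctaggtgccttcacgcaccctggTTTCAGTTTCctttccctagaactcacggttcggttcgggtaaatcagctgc
Gbp2, chr3:142620569-142620648, plus strand: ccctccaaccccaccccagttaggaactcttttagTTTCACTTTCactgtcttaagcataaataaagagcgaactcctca
Irgm1, chr11:48871421-48871500, minus strand: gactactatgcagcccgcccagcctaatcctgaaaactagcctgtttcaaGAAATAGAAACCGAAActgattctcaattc
Isg15, chr4:156200846-156200925, minus strand: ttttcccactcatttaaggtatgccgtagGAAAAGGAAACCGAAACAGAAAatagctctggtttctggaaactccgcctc
Ifit1, chr19:34640759-34640838, plus strand: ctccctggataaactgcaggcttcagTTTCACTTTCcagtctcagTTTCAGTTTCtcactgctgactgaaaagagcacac
Ifit3, chr19:34583355-34583434, plus strand: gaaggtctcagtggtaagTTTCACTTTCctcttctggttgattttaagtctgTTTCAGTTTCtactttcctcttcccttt
Ifit3b, chr19:34607751-34607830, plus strand: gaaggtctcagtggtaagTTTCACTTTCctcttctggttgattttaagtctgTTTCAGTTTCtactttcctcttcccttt
Oas1a, chr5:120907526-120907605, minus strand: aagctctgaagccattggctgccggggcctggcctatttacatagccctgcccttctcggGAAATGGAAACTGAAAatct

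Isg15 held 3 overlapping matches from position -78 to -57, counted back from the start. The stretches of Ifit3 and Ifit3b, which are near-identical neighbours, had the same base at 80 of 80 positions, and the matches lay at positions -156 to -113 from the start of Ifit3 and at -188 to -145 from that of Ifit3b. Ifitm2 had 1 match, at -46 to -37.

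The GAS was searched as TTCNNNGAA, which reads the same on both strands. It was found in 9 of the 29 genes (31%), against 2582 of 27025 (9.55%). Irf1, a transcription factor that interferon gamma induces, held the GAS and no ISRE. Its stretch is shown with the GAS in capitals.
Irf1, chr11:53769888-53769967, plus strand: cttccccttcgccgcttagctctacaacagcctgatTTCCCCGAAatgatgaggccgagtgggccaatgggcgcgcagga

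Both motifs were found in 6 genes, namely Oas1a, Bst2, Ifitm3, Gbp7, Igtp and Eif2ak2, and they overlapped in Bst2 and Ifitm3. In 7 genes neither spelling was found, which says only that these letters were not in this window. The levels of genes with and without an ISRE match in the window overlapped. The median TPM of the 19 genes with it was 5.35 in mouse 2 and 4.39 in mouse 1, and that of the 10 genes without it was 4.775 in mouse 2 and 5.68 in mouse 1. The range of mean TPM with the ISRE, from 0.125 (Oas3) to 132.1 (Ifitm2), was wider than the range without it, from 0.995 (Ifit2) to 43.53 (Trim25).

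**Figure D1:**
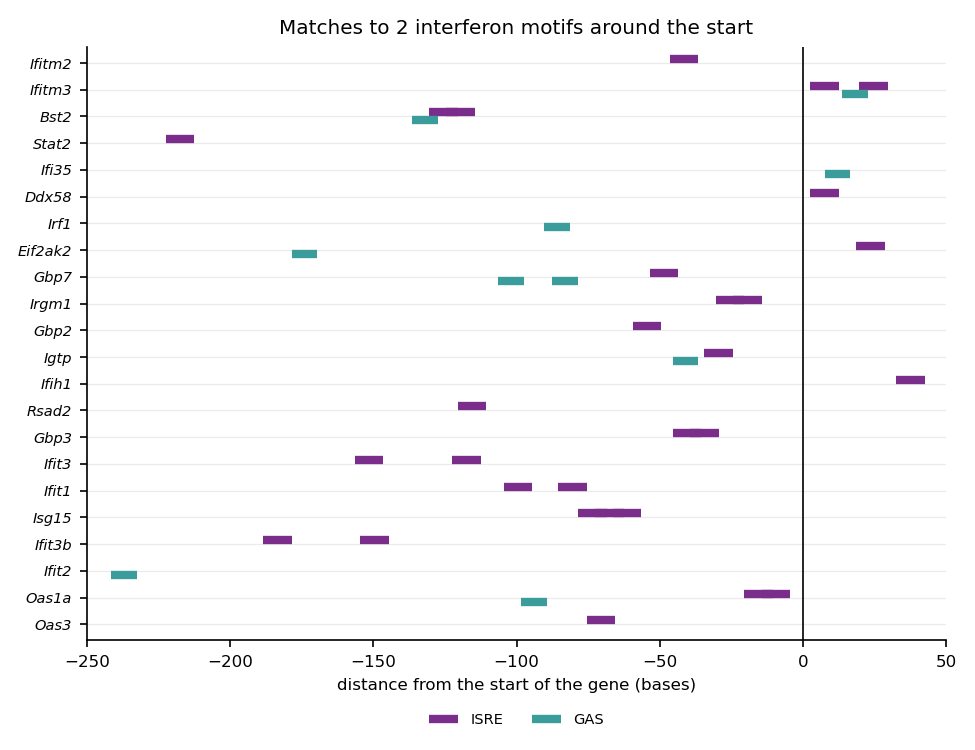
Positions of matches to the ISRE (purple) and the GAS (teal) in the promoter windows of the 22 members that held either, with genes in order of mean TPM from the top. The x axis is the distance in bases from the RefSeq start of the gene. Most ISRE matches lie within the 150 bases before the start, that of Stat2 lies farthest out, and Ifitm3, Ddx58, Eif2ak2 and Ifih1 have theirs after the start.

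As a list, the genes were expressed at a low to moderate level, and a pair of them made up most of the sum. The 40 genes summed to 778.4 TPM in mouse 2 against 716.9 in mouse 1. Ifi27 and Ifitm2 together held 64.6% of this sum in mouse 2 and 63.8% in mouse 1. The median gene stood at 3.825 TPM in mouse 2 against 3.85 in mouse 1, while the median of 22015 nuclear protein-coding genes was 1.97 TPM in mouse 2 and 1.72 in mouse 1. By mean TPM, 28 of the 40 lay above that median. Of the 22015 genes, however, 4781 had 0 counts in both mice. Over the 17666 genes of any class with a mean of at least 10 counts, the median was 5.81 TPM in mouse 2 and 5.14 in mouse 1, above that of the list. In both mice, 32 of the 40 genes reached 1 TPM and 8 reached 10 TPM. A mean below 1 TPM was found for 7 genes, which were Ifit2, Mx1, Oas1a, Usp18, Iigp1, Oas2 and Oas3. None of the 40 was at 0 counts, and the least abundant, Oas3, had 20 counts in mouse 2 and 19 in mouse 1.

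**Figure D2:**
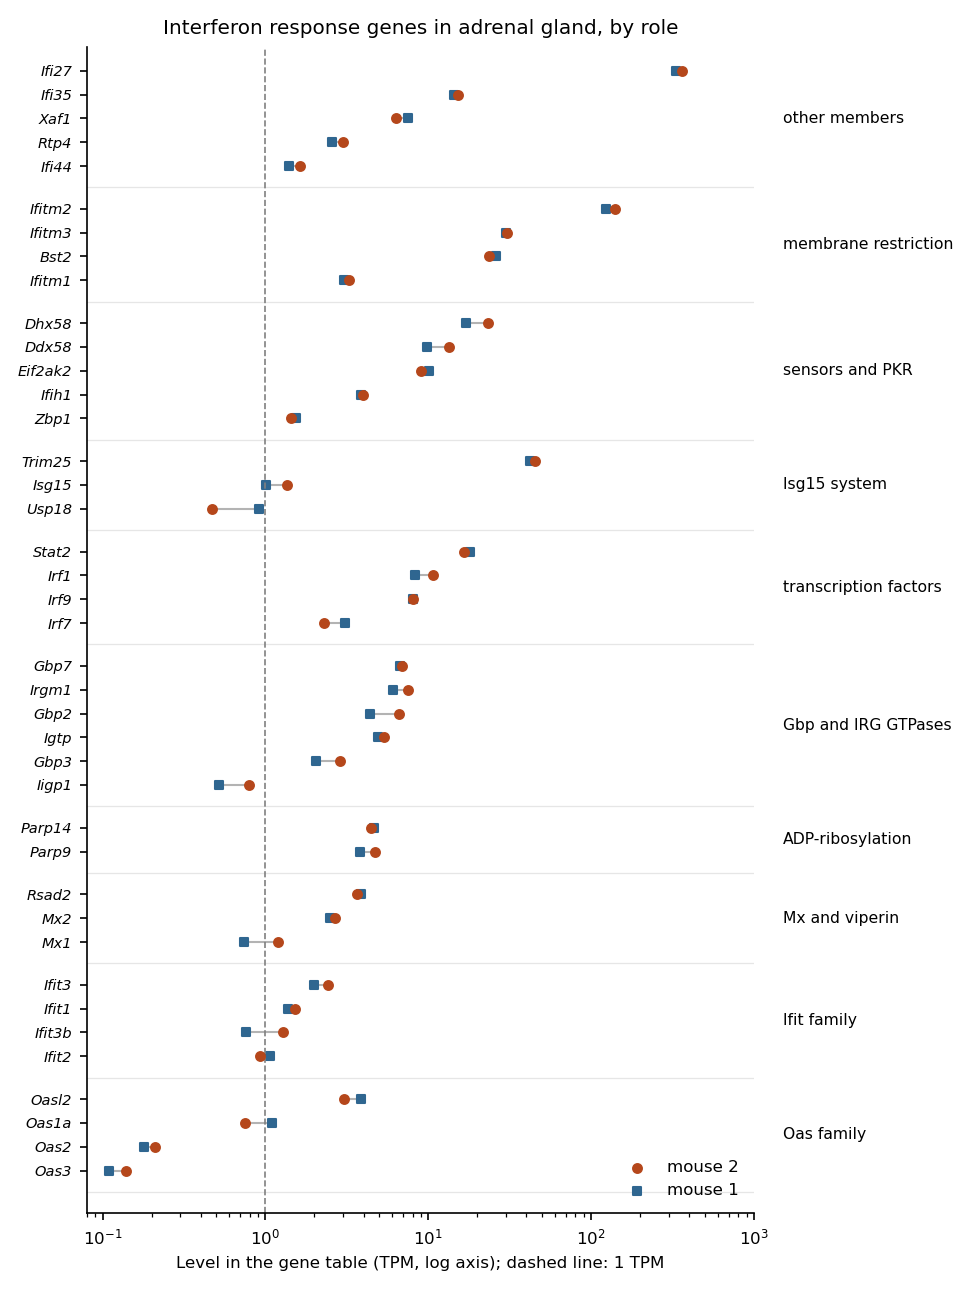
TPM of each of the 40 genes (x axis, log scale) in mouse 2 (circles) and mouse 1 (squares), grouped by role, with roles in order of summed TPM. Ifi27 and Ifitm2 exceed 100 TPM, the Ifit family lies near the dashed line at 1 TPM, and Oas2 and Oas3 lie below the rest.

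Among the transcription factors, Stat2 was the most abundant, at 16.45 TPM in mouse 2 against 17.99 in mouse 1. Its DNA-binding partner Irf9 had 8.08 TPM in mouse 2 against 8.1 in mouse 1. Irf1 had 10.72 TPM in mouse 2 against 8.33 in mouse 1. Irf7, the factor that drives the second wave of interferon alpha genes and is itself strongly induced, was the lowest of the group, with 2.28 TPM in mouse 2 against 3.07 in mouse 1.

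The sensors of foreign nucleic acid were of unequal abundance. Dhx58, which encodes the RNA-binding regulator LGP2, had 23.17 TPM in mouse 2 against 17.06 in mouse 1. Ddx58, which encodes RIG-I, the sensor of short RNA with a triphosphate end, had 13.35 TPM in mouse 2 against 9.76 in mouse 1. Ifih1, the sensor of long double-stranded RNA, was lower in both mice, with 3.99 TPM in mouse 2 against 3.86 in mouse 1. The kinase PKR (Eif2ak2) halts translation when it binds double-stranded RNA, and it had 9.02 TPM in mouse 2 against 10.03 in mouse 1. Zbp1, a sensor of left-handed nucleic acid, had 1.43 TPM in mouse 2 against 1.53 in mouse 1. The order of these 5 genes was the same in both mice apart from Ddx58 and Eif2ak2, which changed places.

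The oligoadenylate synthetases, which activate the nuclease RNase L, had the lowest mean sum of the families, with 4.12 TPM in mouse 2 against 5.26 in mouse 1. Oasl2, a member related to ubiquitin, held most of it, with 3.02 TPM in mouse 2 against 3.87 in mouse 1. Oas1a had 0.75 TPM in mouse 2 against 1.1 in mouse 1, Oas2 had 0.21 and 0.18 TPM, and Oas3 had 0.14 and 0.11 TPM in the same order. Oas1a, Oas2 and Oas3 lie within 177 kb of chromosome 5 (mm10, 120730333 to 120907521).

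The Ifit genes, whose products bind viral RNA that lacks host cap marks, summed to 6.16 TPM in mouse 2 against 5.2 in mouse 1. They lie within 99 kb of chromosome 19 (mm10, 34550694 to 34650009). Ifit3 had 2.43 TPM in mouse 2 against 2 in mouse 1, and its copy Ifit3b had 1.28 TPM in mouse 2 against 0.76 in mouse 1. Ifit1 was at 1.52 TPM in mouse 2 against 1.38 in mouse 1, and Ifit2 was at 0.93 TPM in mouse 2 against 1.06 in mouse 1. These are genes that interferon raises to a high level in other settings, and here they stood near or below the median protein-coding gene.

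Of the dynamin-like Mx GTPases, Mx2 had 2.69 TPM in mouse 2 against 2.49 in mouse 1, and Mx1 had 1.19 TPM in mouse 2 against 0.74 in mouse 1. The annotation classes Mx2 as a polymorphic pseudogene, while the other 39 genes are classed as protein coding. Viperin (Rsad2), an enzyme that makes a chain-terminating nucleotide, had 3.66 TPM in mouse 2 against 3.84 in mouse 1.

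The membrane proteins that hinder virus entry or release were the most abundant antiviral family, with a sum of 197.5 TPM in mouse 2 against 183.3 in mouse 1. Ifitm2 led, at 140.35 TPM in mouse 2 against 123.89 in mouse 1 (132.1 ± 11.6), above 98.5% of nuclear protein-coding genes. Ifitm3 had 30.32 TPM in mouse 2 against 30.17 in mouse 1. Ifitm1 was far lower, with 3.25 TPM in mouse 2 against 3.05 in mouse 1, although the 3 genes lie within 56 kb of chromosome 7 (mm10, 140954837 to 141010770). Tetherin (Bst2), which ties budding virus to the cell surface, had 23.61 TPM in mouse 2 against 26.19 in mouse 1.

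The GTPases that act on the vacuoles of intracellular pathogens, which interferon gamma induces most strongly, were of intermediate level. Among the guanylate-binding proteins, Gbp7 had 6.93 TPM in mouse 2 against 6.69 in mouse 1, Gbp2 had 6.61 and 4.39 TPM, and Gbp3 had 2.85 and 2.03 TPM in the same order. Among the immunity-related GTPases, Irgm1 had 7.51 TPM in mouse 2 against 6.03 in mouse 1, Igtp had 5.35 and 4.88 TPM, and Iigp1 had 0.79 and 0.52 TPM. All 6 were higher in TPM in mouse 2, where the family summed to 30.04 TPM, against 24.54 TPM in mouse 1. TPM was not rescaled between the mice, and over all genes tested its median log2 ratio, mouse 2 over mouse 1, was 0.15. On counts scaled between the libraries, 4 of the 6 had a log2 ratio above 0. Gbp7 at -0.02 and Igtp at -0.04 lay below 0. Only Gbp2 passed the test of counts described below.

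Isg15 encodes a ubiquitin-like protein that is attached to other proteins, and it is among the genes that respond most to interferon. It had 1.35 TPM in mouse 2 against 1.01 in mouse 1, from 29 and 27 counts. The protease that removes Isg15 and also restrains the receptor, Usp18, had 0.47 TPM in mouse 2 against 0.91 in mouse 1. Trim25, a ubiquitin ligase that helps to activate RIG-I, was the third most abundant gene of the list, with 44.93 TPM in mouse 2 against 42.14 in mouse 1.

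Parp14 and Parp9, which transfer ADP-ribose and lie within 140 kb of each other on chromosome 16, were at similar levels. Parp14 had 4.42 TPM in mouse 2 against 4.62 in mouse 1, and Parp9 had 4.7 TPM in mouse 2 against 3.81 in mouse 1.

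Ifi27, a small hydrophobic protein of membranes, had the highest level of all 40 genes, with 362.42 TPM in mouse 2 against 333.54 in mouse 1 (348 ± 20.4), above 99.7% of nuclear protein-coding genes. It lies on chromosome 12 (mm10, 103434211 to 103440239). Its neighbour Ifi27l2a, a related gene outside the list, had 163.54 TPM in mouse 2 against 75.84 in mouse 1. Ifi35, which binds Nmi, a partner of Stat proteins, had 15.3 TPM in mouse 2 against 14.31 in mouse 1. Xaf1, which promotes cell death, had 6.3 TPM in mouse 2 against 7.49 in mouse 1. Rtp4, a receptor transporter with antiviral action, had 2.99 TPM in mouse 2 against 2.55 in mouse 1, and Ifi44 had 1.64 TPM in mouse 2 against 1.39 in mouse 1.

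The steps before the response were unequally represented. Of 21 interferon genes, none reached 1 TPM in both mice and 18 had 0 counts in both, among them Ifnb1, Ifng and all listed Ifna genes. With 0 counts, a level of up to 0.0932 CPM in mouse 2 and of 0.0821 CPM in mouse 1 cannot be told from none, by counting error alone. The others were Ifnl2, with 3 counts in mouse 2 and 2 in mouse 1, Ifnl3, with 0 counts in mouse 2 and 1 in mouse 1, and Ifnz, with 1.5 expected counts in mouse 2 and 0 in mouse 1. The receptors, by contrast, were present, and 5 of 6 reached 1 TPM in both mice. Ifnar1 had 20.84 TPM in mouse 2 against 15.33 in mouse 1, and Ifnar2 had 31.21 and 27.55 TPM. For the receptor of interferon gamma, Ifngr1 had 14.38 TPM in mouse 2 against 12.48 in mouse 1, and Ifngr2 had 7.36 and 6.25 TPM. The receptor of interferon lambda was unequal, with Ifnlr1 at 0.05 TPM in each mouse and its partner Il10rb, which also serves interleukin receptors, at 94.11 TPM in mouse 2 against 80.79 in mouse 1.

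The kinases Jak1, Jak2 and Tyk2 all exceeded 1 TPM, led by Jak1 with 43.54 TPM in mouse 2 against 35.71 in mouse 1. Of the list of sensing and induction genes, 11 of 12 matched a symbol and 9 reached 1 TPM in both mice. Irf3, the factor that first induces interferon beta, led them with 44.66 TPM in mouse 2 against 35.71 in mouse 1. The 3 genes that attach Isg15 to its targets, Uba7, Ube2l6 and Herc6, had mean levels of 5.8, 3.88 and 4.53 TPM, above the mean of 1.18 TPM of Isg15 itself. In a wider list of 52 other interferon-stimulated genes, 37 reached 1 TPM in both mice, and the median was 2.52 TPM in mouse 2 against 1.92 in mouse 1.

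**Figure D3:**
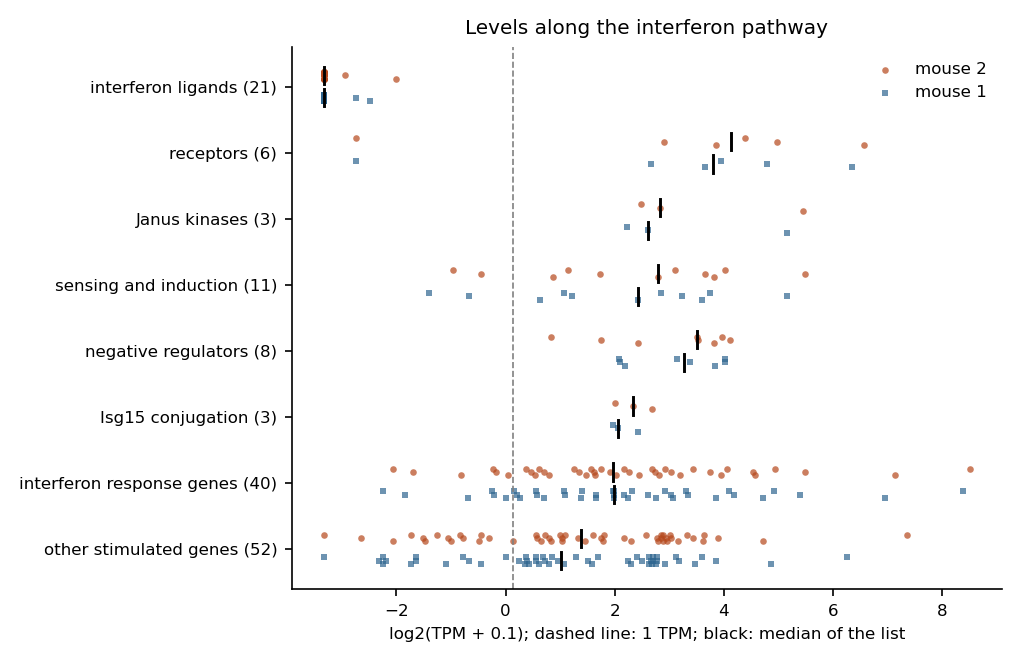
Levels along the pathway, as log2 of TPM plus 0.1 (x axis), with each point a gene in mouse 2 (circles) or mouse 1 (squares) and the number of genes in brackets. Black bars are medians. Nearly all ligands lie at the left edge, which is 0 TPM, while 5 of the 6 receptors and all kinases lie right of the dashed line at 1 TPM.

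Mouse 2 and mouse 1 differed little in these genes. The log2 ratio of expected counts, mouse 2 over mouse 1 after TMM scaling, had a median of -0.04 over the 40 genes, against 0.00 over all 17666 genes tested. It lay below 0 for 23 genes and above 0 for 17, and within 0.5 of 0 for 37. All 40 passed the filter of a mean of 10 counts. At 2-fold, none was higher in mouse 2, where 1.15% of all genes were, and 1 was lower, where 1.81% of all genes were. That gene was Usp18, with 24 counts in mouse 2 and 60 in mouse 1, a log2 ratio of -1.13 (95% counting interval -1.93 to -0.48) and an adjusted p of 0.00356 by the exact binomial test. Socs1, a feedback inhibitor of the receptor kinases outside the list, was also lower in mouse 2, with 151 counts in mouse 2 and 455 in mouse 1 (log2 ratio -1.45, adjusted p = 1.43e-28 by the exact binomial test).

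An exact two-sided binomial test of the counts, adjusted by the Benjamini-Hochberg method over all genes tested, compares the 2 libraries and not conditions. By this test 3 of the 40 genes were higher in mouse 2, where the background was 10.4% of all genes, and 8 were lower, where it was 11.0%. The split depended on the scaling, with 5 higher and 6 lower when total counts set the scale, and 2 higher and 10 lower under ERCC scaling. The 11 genes are 27.5% of the list, against 21.3% of all genes. The share called depends on the depth of a gene. Of 22 genes with 100 to 1000 counts 5 were called, against 17.5% of all genes at that depth, and of 8 genes with 1000 to 10000 counts 4 were called, against 34.9%. Of the 10 genes with 10 to 100 counts 2 were called, against 9.66%.

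The 3 genes that were higher in mouse 2 were Gbp2, Parp9 and Dhx58. Gbp2 had 525 counts in mouse 2 and 432 in mouse 1 (log2 ratio 0.41, adjusted p = 0.000116 by the exact binomial test). Dhx58 had 1602 counts in mouse 2 and 1526 in mouse 1, with a log2 ratio of 0.20. Parp9 had 400 counts in mouse 2 and 360 in mouse 1, with a log2 ratio of 0.29, and its call was lost under ERCC scaling and with no filter on low counts. The other genes of the same families did not pass, among them Gbp7 at -0.02, Gbp3 at 0.25, Parp14 at -0.09 and Ddx58 at 0.10.

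The 8 genes that were lower in mouse 2 included a pair of subunits of the factor that binds the ISRE. Stat2 had 1486 counts in mouse 2 and 2019 in mouse 1, a log2 ratio of -0.31 (counting interval -0.41 to -0.21; adjusted p = 9.65e-09 by the exact binomial test). Irf9 had 580.33 expected counts in mouse 2 and 757.12 in mouse 1, a log2 ratio of -0.25. Bst2 stood at a log2 ratio of -0.32 and Xaf1 at -0.37. Oas1a, with 43.73 expected counts in mouse 2 and 79.73 in mouse 1, stood at -0.71, and its call was lost in the second quantification and with no filter on low counts. Trim25 at -0.10 and Ifi27 at -0.07 passed with small ratios at high depth, with 6110 and 6919 counts in mouse 2 against 7192 and 7950 in mouse 1, and both calls were lost when total counts set the scale, and that of Ifi27 also in the second quantification. Under every alternative in which they were tested, the calls of Stat2, Irf9, Bst2, Xaf1, Usp18, Gbp2 and Dhx58 held.

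The TPM values give another impression, since TPM was not rescaled between the mice. In TPM, 27 of the 40 genes were higher in mouse 2, and 10 of these had a log2 ratio of counts below 0. Among the genes called, Ifi27 and Trim25 turned direction in this way, with log2 ratios of TPM of 0.12 and 0.09 against log2 ratios of counts of -0.07 and -0.10. In the TPM of the second quantification Stat2 and Xaf1 turned as well. There Stat2 had 15.79 TPM in mouse 2 against 14.9 in mouse 1, and Xaf1 had 7.093 against 6.733. In the gene table the median log2 ratio of TPM was 0.11 for the list and 0.15 for all genes tested, so the list did not stand above the rest on that scale either.

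**Figure D4:**
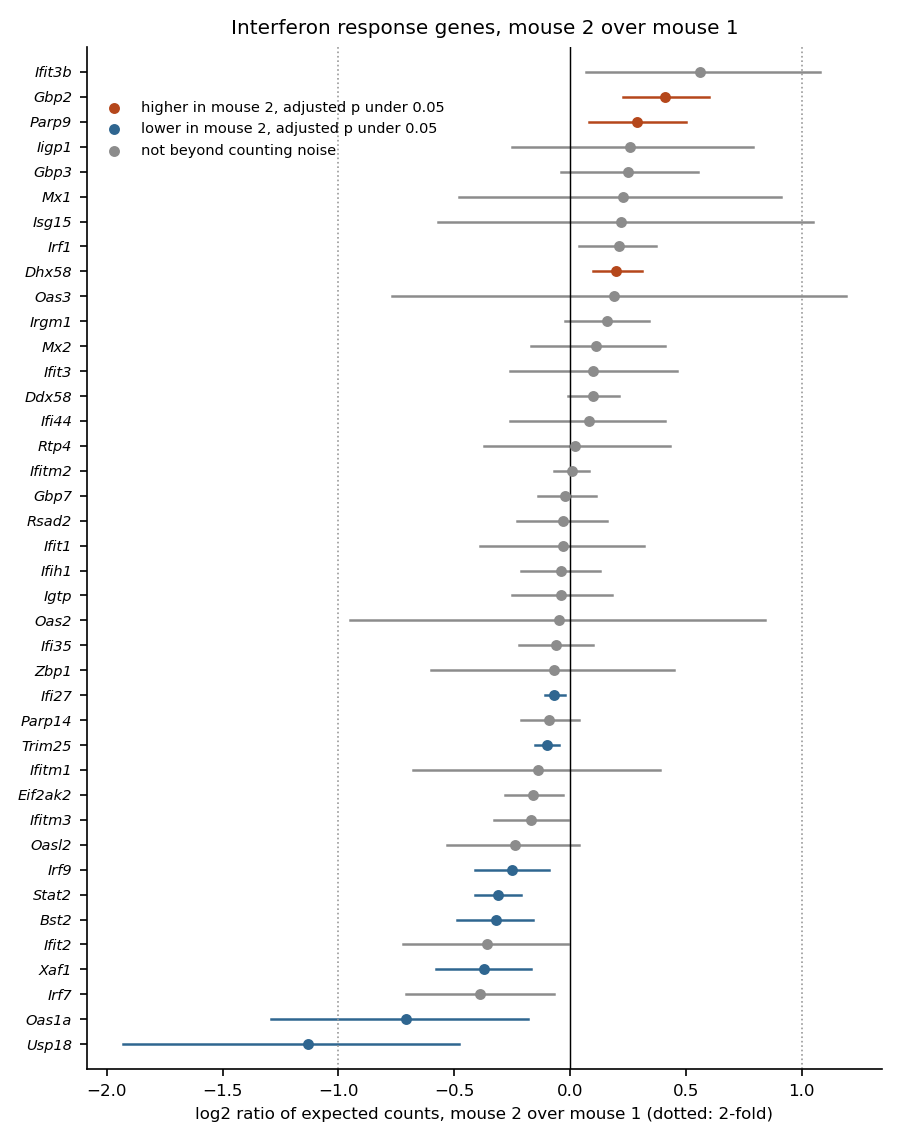
Log2 ratio of expected counts, mouse 2 over mouse 1 (x axis), for the 40 genes in order of the ratio, with 95% counting intervals as bars. Genes higher (orange) or lower (blue) in mouse 2 at an adjusted p under 0.05 are coloured. Usp18 alone passes the dotted 2-fold line, and 37 of the 40 points lie within 0.5 of 0.

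In the other lists of the pathway, the background for a gene called higher in mouse 2 is again 10.4% of all genes, and for one called lower 11.0%. Of the 5 receptors tested, Ifnar1 and Il10rb were higher in mouse 2, with log2 ratios of 0.18 and 0.10. Jak1 was higher by 0.08, and Jak2 and Tyk2 did not pass. None of the 11 genes of sensing and induction passed, and Mavs alone had an unadjusted p under 0.05 in the exact binomial test (p = 0.0349). Of the 8 negative regulators none was higher and 3 were lower, namely Socs1, Socs3 at -0.50 and Irf2bp1 at -0.19. Of 47 tested genes among the other interferon-stimulated genes, 7 were higher and 2 were lower, with a median of -0.01. The widest differences among these were in Cxcl9 and Ifi27l2a. Cxcl9, a chemokine that interferon gamma induces, had 35 counts in mouse 2 and 10 in mouse 1 (log2 ratio 1.74, counting interval 0.90 to 3.12). Its level was low, at 0.38 TPM in mouse 2 against 0.22 in mouse 1, and its log2 ratio of TPM was only 0.58. Ifi27l2a had 1951 counts in mouse 2 and 1121 in mouse 1 (log2 ratio 0.93).

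The marker lists of the cells of the gland differed between the libraries, in both directions. In bulk tissue, fewer cells of a type and less RNA per cell cannot be told apart. Markers are called higher or lower on scaled counts. The sums are of TPM, which was not rescaled and had a median log2 ratio of 0.15 over all genes tested, so a sum can run against the calls. Of the 10 markers of the cortex 2 were higher and 7 lower in mouse 2, with a sum of 23030 TPM in mouse 2 against 21757 in mouse 1 and a median log2 ratio of counts of -0.11. Of the 8 chromaffin markers none was higher and 5 were lower, with a sum of 1989 TPM in mouse 2 against 2112 in mouse 1. Of the 8 markers of capsule fibroblasts 1 was higher and 3 were lower, with a median log2 ratio of counts of -0.15 and a sum of 155.3 TPM in mouse 2 against 149.1 in mouse 1. Endothelial markers summed to 238.5 TPM in mouse 2 against 189.6 in mouse 1, with 3 of 10 higher and 1 lower.

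Among blood and immune cells, all 10 macrophage markers reached 1 TPM in both mice, with a sum of 143.9 TPM in mouse 2 against 123.4 in mouse 1, and their log2 ratios ran from 0.03 to 0.26 with none passing the test. None of the 10 lymphocyte markers reached 1 TPM in both mice, and their sum was 1.47 TPM in mouse 2 against 2.05 in mouse 1. Of these, 3 had counts enough for a test and 2 were lower. Plasmacytoid dendritic cells make most interferon alpha in infection. The 6 genes of their list summed to 68.99 TPM in mouse 2 against 71.46 in mouse 1, with none of 4 tested passing. Nearly all of this sum was Tcf4, with 53.22 TPM in mouse 2 against 55.89 in mouse 1, and Irf8, with 14.04 against 13.41. Of the 6 genes, 3 did not reach 1 TPM in both mice. Among those 3 was Siglech, the defining marker of these cells, with 12 counts in mouse 2 and 19 in mouse 1. The sum is therefore not a measure of these cells. Of the 6 red blood cell markers 5 were tested and all 5 were lower in mouse 2, with a median log2 ratio of -0.99 and a sum of 408.5 TPM in mouse 2 against 747.2 in mouse 1. Adipocyte markers went the other way, with 7 of 8 higher in mouse 2, a median log2 ratio of 0.68 and a sum of 1999 TPM in mouse 2 against 1239 in mouse 1. No marker of these lists was at 0 counts in both mice, and their part in the differences of the interferon response genes was not tested.

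The transcript tables showed which forms made up these levels. Of the 40 genes, 7 have 1 annotated transcript and 33 have more. The leading transcript was the same in both mice in 35 genes and was protein coding in 37. The 3 genes led by a transcript of another class were Ifi27, Mx1 and Oasl2. In the second quantification the same transcript led in 30 of the 40 genes, so the leading form of the others depends on the quantification. The transcript Ifi27-209, annotated as a retained intron, held 38.32% of the gene in mouse 2 and 40.23% in mouse 1, and retained-intron transcripts together held 53% and 53.2% of the most abundant gene of the list. The coding transcript Ifi27-201 held 20.01% in each mouse, and in the second quantification it led the gene with 24.7% in mouse 2 and 23.6% in mouse 1. The level of Ifi27 is thus not the level of its coding messenger alone.

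Retained-intron transcripts held 10% or more in both mice in 10 of the 40 genes. The same share over all genes was not computed, so this count cannot be called particular to the list. In Stat2 their share was 42.5% in mouse 2 and 42.7% in mouse 1, beside 57.48% and 57.38% for the coding Stat2-201. In Oasl2 the leading transcript Oasl2-205 is annotated as a target of nonsense-mediated decay and held 46.75% in mouse 2 and 44.12% in mouse 1. In Mx1 the retained-intron transcript Mx1-206 held 34.49% in mouse 2 and 49.74% in mouse 1, from a gene with only 38.16 and 35.51 expected counts. Shares of such low genes rest on few reads. At the other end, Bst2, Gbp2 and Ifit2 put 100% of their level on 1 coding transcript in both mice although the annotation lists 2.

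**Figure D5:**
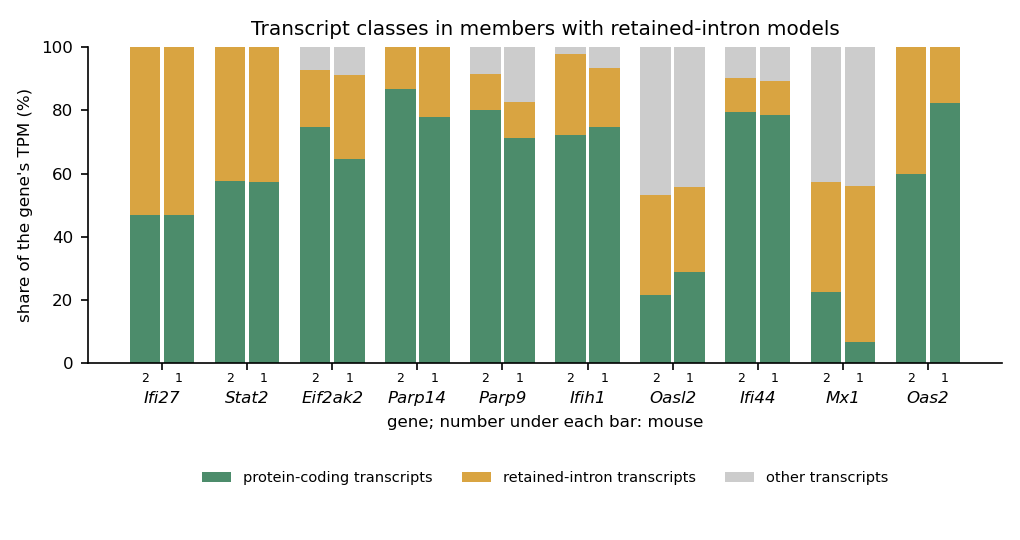
Shares of each gene's TPM (y axis, percent) held by protein-coding (green), retained-intron (yellow) and other transcripts (grey), for the 10 genes with at least 10% in retained-intron transcripts in both mice, in order of mean TPM. The left bar of each pair is mouse 2 and the right bar is mouse 1. The shares of Ifi27 and Stat2 are nearly the same in both mice, and those of Mx1 and Oas2 are not.

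A second quantification of the same libraries gave similar levels. Of the 33 genes that averaged 1 TPM or more, none was 2-fold apart between the gene table and the second quantification, where 4.84% of all genes at that level were. The gene table was higher for 25 genes and lower for 8, and the log2 ratio of gene table over second quantification ran from -0.51 (Rsad2) to 0.35 (Ifitm1), with a median of 0.10, against 0.06 for all genes. For Rsad2 the mean was 3.75 TPM in the gene table and 5.371 TPM in the second quantification.

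Near-identical copies limit some of the values. The transcripts of Ifit3 and Ifit3b were 97.8% identical over 1700 aligned bases, and Oas1a was 97.5% identical to Oas1g over 1860 bases. Counts of such genes are divided between copies by a model. The deposited posterior SD of the count, which measures that uncertainty, was 6.35% in mouse 2 and 6.37% in mouse 1 for Ifit3b, 5.76% and 4.3% for Oas1a, and 3.87% and 2.8% for Ifit3. Mx1 and Mx2 were 94.7% identical over 924 bases of Mx2. For 26 of the 40 genes the posterior SD was 0 in both mice, and only 5 exceeded 1% in either. Ifitm2, the second most abundant gene, was 97% identical over 432 bases to Gm11951, which had 0.93 TPM in mouse 2 against 0 in mouse 1. The animals carry CAST alleles while the tables use the mm10 assembly of the strain C57BL/6J, and how many reads of CAST alleles were placed was not tested.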

How the data were processed

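Total RNA of adrenal gland tissue was measured in 2 libraries of 1 group. The directional libraries were made from 300 ng each after ribosomal RNA was reduced, with ERCC spike-ins, per the labels. Per the deposited text files, the assembly was mm10 and the annotation GENCODE M21. For the aligner and quantifiers a name was not given in the sources used here. The deposited gene tables hold expected counts, estimated by the authors and not always whole, with TPM scaled by the authors over all features and FPKM scaled by the authors to length and counts. The deposited transcript tables hold the percent of a gene that each transcript makes up, and a second deposited table gives estimated counts and TPM per transcript. The deposited gene tables also hold a posterior SD of each count.

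The members and lists were chosen with earlier results of these data known. Ratios of expected counts (mouse 2 over mouse 1) were scaled by TMM (edgeR 4.0.16 under R 4.3.3; prior count 2) for the 17666 genes that averaged 10 counts or more. Expected counts were rounded for the exact two-sided binomial test, with Benjamini-Hochberg adjustment at 0.05 over all these genes. Counting intervals are 95% exact binomial (Clopper-Pearson) intervals and cover counting error alone, as if each read were an independent molecule. Without molecular identifiers a read is not an independent molecule, so the intervals and the test can understate even that error. With 1 group of 2 libraries, no test between groups was possible. Of the pathway and cell type lists, 2 items are not reported here. Every member was named, genes of the pathway lists could be named, and cell type lists were given by counts and sums. The markers Siglech, Tcf4 and Irf8 were named after their values were seen. Of the windows shown, the 3 most abundant followed the rule and the others were chosen after their values were seen. Copies were found with BLAST 2.17.0 among the annotated transcripts, with at least 100 aligned bases. Median-of-ratios size factors came from DESeq2 1.42.0, and the rest was run in Python 3.11.15 (scipy 1.17.1, pandas 2.3.3, numpy 2.4.6). Alternatives were other scalings, filters, units, thresholds and motif spellings, the second quantification and each mouse alone.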

Additional observations from a re-analysis of the deposited data

How the results depend on the processing

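The direction of no called ratio of counts changed under the scalings, filters, prior count and second quantification tried. In unscaled TPM, though, Ifi27 and Trim25 were higher in mouse 2, and so were Stat2 and Xaf1 in the TPM of the second quantification. The number of genes reaching 1 TPM in both mice ran from 31 to 37 across units and quantifications, with 32 as reported. The sum over the 40 genes was 747.6 TPM as reported, 650.3 in the second quantification, 792.4 in FPKM and 2412 when TPM was rescaled to nuclear protein-coding genes, which leaves 39 genes without Mx2, and the median of 3.837 became 3.951, 4.078 and 12.72 under the same alternatives. Raising the threshold from 1 to 10 TPM left 8 genes. From 1 mouse alone the sum ran from 716.9 to 778.4. Scaling by total counts gave 5 genes higher and 6 lower beyond counting noise in place of 3 and 8, ERCC scaling gave 2 and 10, and total counts moved the median ratio of all genes to 0.05. With a minimum mean of 100 counts, 30 of the 40 genes remained and 0 were 2-fold lower, since Usp18 was left out. Oas1a, Ifi27, Trim25 and Parp9 lost their calls under some alternatives, with adjusted p reaching 0.411, 0.682, 0.122 and 0.0569 by the exact binomial test. Irf1, Irf7, Ddx58 and Eif2ak2 gained one under some. The signs of 5 uncalled ratios differed under total counts and 4 under the second quantification. The ISRE spelling changed to 1 base in place of 2 between the blocks was found in 7 of the 29 genes with a window (24.1%), against 3.7% of all genes with a window. The stricter spelling TTCCNGGAA of the GAS was found in 3 of the 29 (10.3%), against 1.35%. No paired analysis was possible because there is 1 group. At 19 to 60 counts a gene, as in Oas2, Oas3, Isg15 and Usp18, depth limits the ratio, and the interval of Oas3 ran from -0.77 to 1.19.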
